A study of Mus musculus with 8 samples.

Results

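The genes described here make, regulate, move, store and export cholesterol in activated mouse CD8 T cells. They were chosen by symbol as 30 named genes of sterol synthesis, SREBP2 control, uptake, trafficking and efflux. All 30 were found among the 35072 genes of the deposited table, and all 30 were among the 13299 genes with enough counts to be tested. The libraries fell into 2 groups of 4. In the formate group, naive wildtype CD8 T cells from spleen and lymph nodes, activated for 18 h through CD3 and CD28 in the presence of IL-12, were exposed to 2 mM formate for 24 h. The PBS group had the same genotype, activation and times, with PBS as the vehicle. Age, sex and strain beyond wildtype are not given in the labels used here, nor is it said whether the libraries of a group came from separate animals or cultures, so each p-value covers only sample-to-sample spread, part or all of which may be technical. Formate is a one-carbon metabolite that cells and gut microbes make. The series title concerns a microbial metabolite and the antitumour function of CD8 T cells, and the comparison asks how formate changes their transcriptome.

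Cholesterol is built from acetyl units. The mevalonate enzymes make isoprenoid blocks, farnesyl diphosphate synthase joins them, and the squalene and sterol enzymes close and trim the ring. When sterol in the endoplasmic reticulum is low, SCAP escorts the transcription factor SREBP2 to the Golgi for cleavage, and the released fragment activates nearly all of the synthesis genes; when sterol is high, the INSIG proteins hold the complex back. Oxidised sterols act through the LXR receptors in the opposite sense, raising efflux pumps and the ligase that removes the lipoprotein receptor from the cell surface. T cells raise sterol synthesis when they are activated, since new membrane has to be made before division.

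The sequence through which SREBP2 acts is short, and it is shown here because the genes below are usually read as one regulon. Promoter windows from 250 bases before to 50 bases after the start (RefSeq, GRCm38.p6) were matched for 24 of the 30 genes and searched on both strands. The exact sterol regulatory element, TCACNCCAC, occurred in 1 of the 24 (Hmgcs1, 4.17%), against 1.44% of 27025 genes with a window and 1.35% of the tested genes among them. Allowing 1 mismatch, it occurred in 11 of 24 (45.8%), against 26.7% of all genes and 29.3% of the tested ones. The stretches below lie upstream of the start and are printed 5′ to 3′ on the strand of the gene, with the element or its 1-mismatch match in capitals. They are examples from the 11 genes. Hmgcs1 and Srebf2 had lower counts with formate in the paired comparison described further on, and Cyp51 and Nsdhl did not pass it. Of the other genes called lower there, Dhcr7 had a 1-mismatch match, whereas Scap, Mvk, Mvd and Lss had a window without one.
Hmgcs1 (chr13:119690194-119690242, plus strand, exact match, first base 137 bases upstream): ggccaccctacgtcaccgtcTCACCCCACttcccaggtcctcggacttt
Srebf2 (chr15:82147087-82147135, plus strand, 1 mismatch, 162 bases upstream): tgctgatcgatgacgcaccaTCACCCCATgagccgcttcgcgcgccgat
Cyp51 (chr5:4104777-4104825, minus strand, 1 mismatch, 108 bases upstream): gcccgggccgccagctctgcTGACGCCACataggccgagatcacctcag
Nsdhl (chrX:72918296-72918344, plus strand, 1 mismatch, 205 bases upstream): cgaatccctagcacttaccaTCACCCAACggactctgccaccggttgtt

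The other motifs searched were those of cofactors and of LXR. The CCAAT box, bound by NF-Y, which acts beside SREBP2, was in 20 of 24 promoters (83.3%), against 41.1% of all genes and 43.6% of the tested ones. The GC box GGGCGG, bound by Sp1, was in 22 of 24 (91.7%), against 38.2% of all genes and 68.4% of the tested ones. The LXR element, AGGTCA repeated in the same direction after 4 free bases, was in none of the 24 windows, against 0.0148% of all genes, which says only that these letters are not in these windows. A match is a description and not a site of binding.

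The libraries held 29361986 to 41393093 estimated counts, so counting error is small for all but the lowest genes here; 3 counts in the smallest library equal 0.102 CPM (counts scaled to the size of the library), the TMM-normalised unit of all levels below. The cells carried the defining markers of their label: Cd8a lay between 463 and 612 CPM in formate libraries and between 491 and 608 CPM in PBS libraries. The summed markers of CD8 T cells (5 of 6 listed), B cells, CD4 T cells, myeloid, NK, erythroid and stromal cells gave exact two-sided permutation p-values of 0.486 to 0.971, all 0.971 after Benjamini-Hochberg adjustment over the 7 lists. Myeloid markers, from cells rich in sterol exporters, summed to 41.3 to 45.4 CPM with formate and 37.6 to 52.0 CPM with PBS, most of it Cst3. The largest axis of variation, 51.2% of the variance, did not follow the treatment but set the libraries with title codes 10 to 14 (formate 1 and 2, PBS 1 and 2) apart from those with codes 1 to 8 (formate 3 and 4, PBS 3 and 4). Neighbouring title codes (11 and 10, 14 and 13, 2 and 1, 8 and 7) each hold 1 formate and 1 PBS library, numbered alike here, and the fit with these 4 pairs as a block is called the paired fit; the labels do not state that neighbours belong together. Pair by pair, the B cell sum was higher with formate in 4 of 4 pairs, at 32.8, 18.3, 21.7 and 19.0 CPM in formate libraries, against 29.01, 16.2, 17.0 and 18.8 CPM in PBS libraries, and the other 6 sums were higher in 1 or 2 of 4. Of the 7 B cell genes 1, Ms4a1, rose in the paired edgeR fit (log2 0.62, SE 0.17, adjusted p = 0.0275), and the median log2 change of the 7 was 0.18; their part in the results below was not tested. In bulk RNA, fewer cells of a type and less RNA per cell cannot be told apart.

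Without the pairing, no sterol gene passed the test. With edgeR's quasi-likelihood test and an adjusted p under 0.05, 0 of 30 were called in either direction, beside 0.00752% of all tested genes higher with formate and 0% lower. At an unadjusted p under 0.05, 0 of 30 were counted as well, beside 3.05% of all genes higher and 1.72% lower, and DESeq2 called 0 of 30 unpaired, beside 0.0827% of all genes higher and 0.0752% lower. The gene nearest the threshold was Srebf2, with a log2 change of -0.16 (SE 0.08, unadjusted p = 0.0624, edgeR adjusted p = 0.998).

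Set against their neighbours, formate libraries had lower normalised counts for SREBP2, its escort and enzymes from early to late steps of the pathway. Other settings, given below, did not keep all of these calls. In the paired edgeR fit 9 of the 30 genes fell with formate, beside 7.52% of all tested genes lower, 0 rose, beside 5.35% higher, and 21 did not pass. The 9 were Srebf2 and Scap of the control circuit, Hmgcs1, Mvk, Mvd and Fdps of the mevalonate and isoprenoid steps, and Sqle, Lss and Dhcr7 of the squalene and sterol steps. Each of the 9 was lower in 4 of 4 pairs, which is not separate evidence, since they were called from these same pairs. Of all 30 genes, 13 were lower in 4 of 4 pairs (43.3%, beside 19.5% of all genes), and 2, Msmo1 and Sc5d, were higher in 4 of 4 (beside 16% of all genes). The changes were small: the median log2 change of the 30 was -0.07, against -0.0031 over all genes, and the lowest was -0.27 for Mvk. No gene had formate and PBS ranges that lay apart (0 of 30, beside 1.85% of all genes lower and 2.44% higher).

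The count depended on the pairs and on the scaling. Leaving out codes 10 and 11 gave 6 genes lower, leaving out 13 and 14 gave 2, leaving out 1 and 2 gave 1, and leaving out 7 and 8 gave 5; the backgrounds were then 6.12%, 2.11%, 1.34% and 3.1% of all genes. Those left were Dhcr7, Fdps, Lss, Scap, Sqle and Srebf2 in the first of these fits, Dhcr7 and Fdps in the second, Fdps in the third, and Dhcr7, Fdps, Mvd, Mvk and Sqle in the last, so that Fdps passed in all 4 and Dhcr7 in 3. Without codes 10 and 11, Tm7sf2 was called higher, beside 4.18% of all genes higher. Upper-quartile scaling left 5 lower (Dhcr7, Fdps, Mvd, Mvk and Sqle), beside 5.53% of all genes lower and 6.26% higher. Scaling by library size alone left 4 (the same without Sqle) with Msmo1 added as higher. The shares of all genes were then 4.05% lower and 7.88% higher, so the background moved with the scaling too. The paired DESeq2 fit called the same 9 as the paired edgeR fit, beside 8.14% of all genes lower and 3.7% higher. Against a minimum change of 1.2-fold, 0 of 30 were called in the paired fit, beside 0.00752% of all genes lower and 0.0376% higher.

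**Figure D1:**
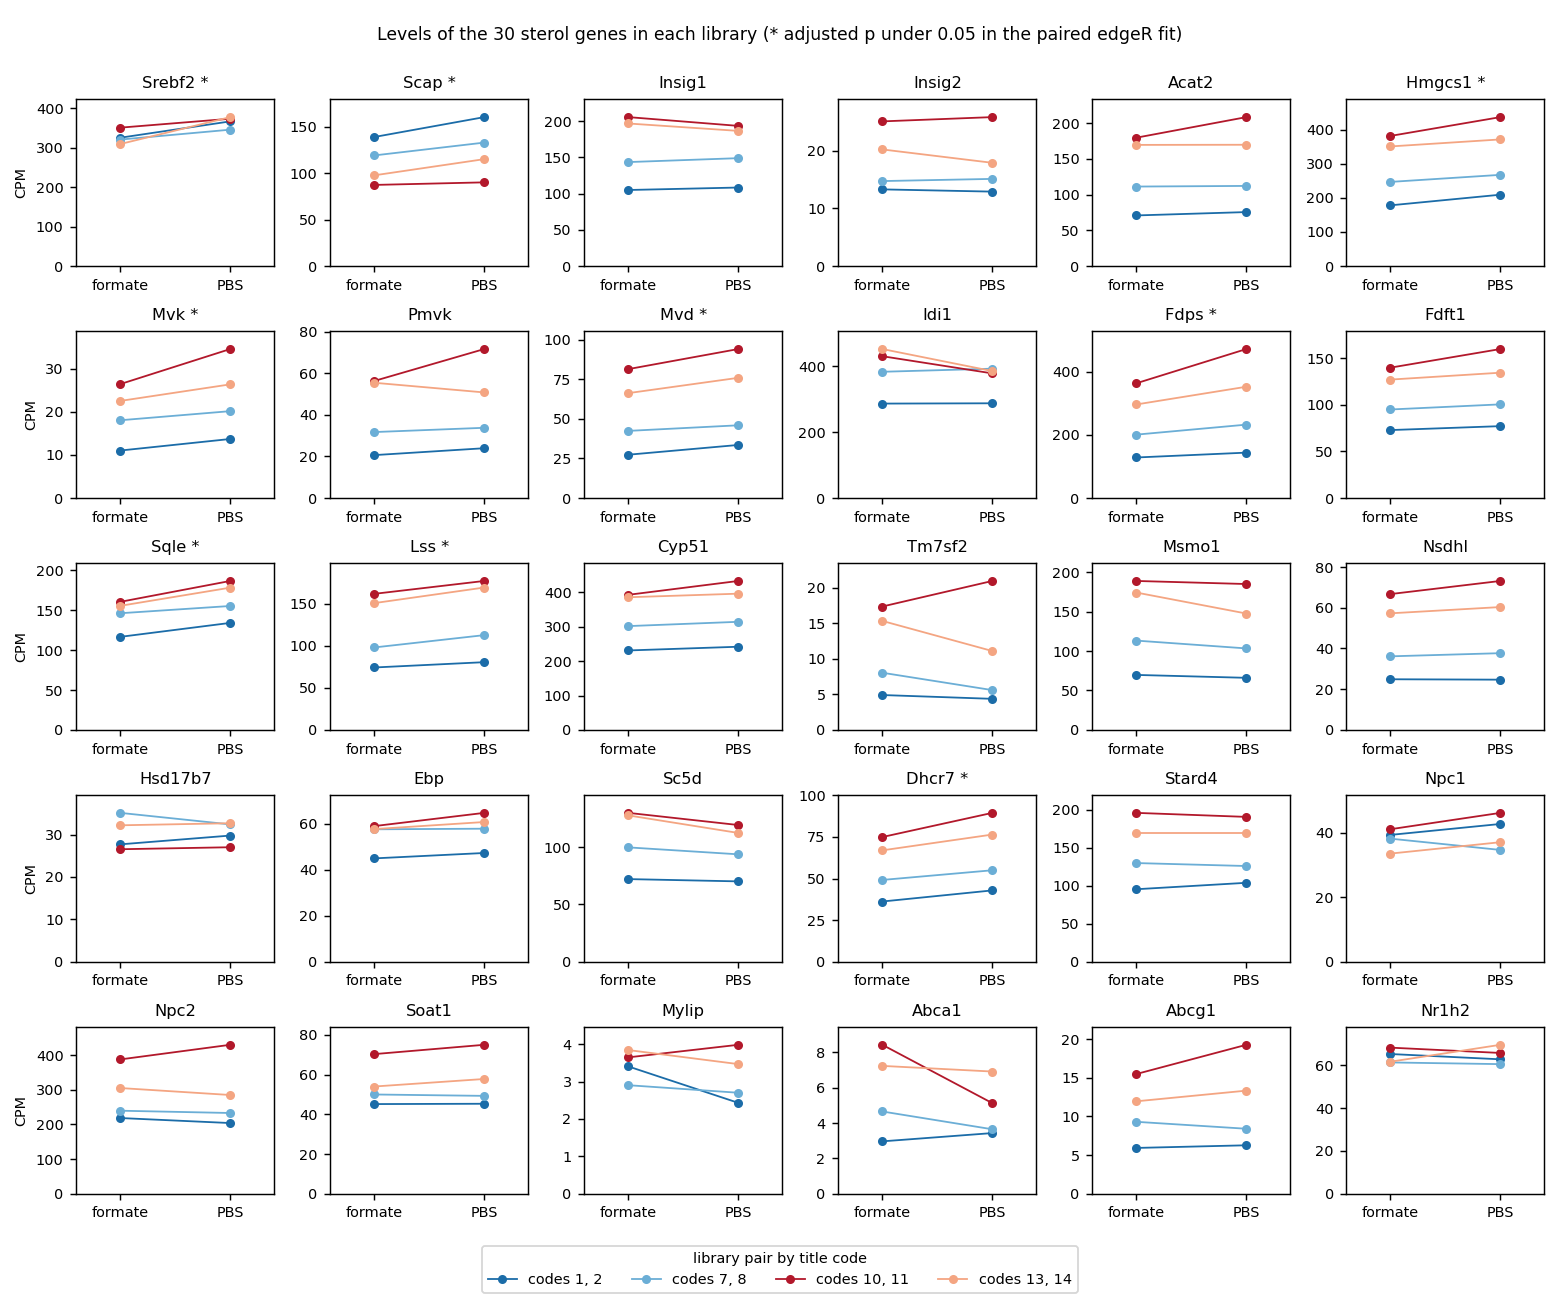
TMM-normalised CPM of the 30 sterol genes, 1 panel per gene with its own axis from 0; each line joins the formate library (left) and the PBS library (right) of a pair of neighbouring title codes. Fdps, Mvk and Dhcr7 slope upward toward PBS in all 4 pairs, Msmo1 and Sc5d slope downward in all 4, and in most panels the pairs lie farther apart from each other than the groups do.

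Srebf2 and Scap, the factor and its escort, were both called lower with formate in the paired fit, calls that several other settings did not keep, and the INSIG anchors did not pass. Srebf2 (chr15:82147181-82205379, GRCm38) encodes SREBP2 itself and is among its own targets. It had 350.5, 309, 325 and 320.3 CPM in formate libraries 1 to 4, against 373, 377, 366 and 345 CPM in PBS libraries 1 to 4. Only formate 1 exceeded a PBS library, PBS 4, so the ranges overlapped narrowly. The paired log2 change was -0.17 (SE 0.05, edgeR adjusted p = 0.0302). The adjusted p was 0.0886 with the GC offsets described below, 0.0504 with upper-quartile scaling, 0.0906 with library size alone, and between 0.0285 and 0.157 with a pair left out, where the call was kept without codes 10 and 11 and lost in the other 3 fits.

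Scap (chr9:110333288-110384950) encodes the sterol-sensing protein that carries SREBP2 out of the endoplasmic reticulum. It had 87.3, 97.6, 139 and 119 CPM with formate, against 90.0, 115, 160.2 and 133 CPM with PBS. It was the only gene of the 30 that lay clearly lower in codes 10 to 14 than in codes 1 to 8, with a ratio of 0.717 among formate and 0.700 among PBS libraries, and its groups overlapped widely. Its paired log2 change was -0.16 (SE 0.05, edgeR adjusted p = 0.0304). This call too was lost with GC offsets (0.0994), upper-quartile scaling (0.0544), library size alone (0.105) and in 3 of the 4 fits without a pair (0.102 to 0.194).

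Insig1, whose product anchors SCAP and whose gene is a sensitive SREBP2 target, had 205, 197, 105 and 143 CPM with formate, against 193, 186, 108 and 149 CPM with PBS. It was higher with formate in both pairs of codes 10 to 14 and lower in both pairs of codes 1 to 8. The paired log2 change was 0.02 (SE 0.05, edgeR adjusted p = 0.845). Insig2, the second anchor, which SREBP2 does not drive, had 25.1, 20.2, 13.3 and 14.8 CPM with formate, against 25.9, 17.9, 12.9 and 15.1 CPM with PBS, and its groups overlapped throughout. Its paired log2 change was 0.04 (SE 0.07, edgeR adjusted p = 0.778).

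Of the 7 genes for the steps from acetyl-CoA to farnesyl diphosphate, 4 were called lower and 0 higher. The shares of all tested genes were 7.52% lower and 5.35% higher, and the control genes above had 2 of 4 lower. The median paired log2 change of the 7 was -0.16. Hmgcs1 (chr13:119690379-119708260), the synthase that condenses acetyl-CoA with acetoacetyl-CoA and the gene with the exact element printed above, had 382, 351, 178 and 247 CPM with formate, against 437, 371, 209 and 268 CPM with PBS. It was lower with formate in every pair, although its values in codes 10 to 14 exceeded those in codes 1 to 8 in both groups. The paired log2 change was -0.16 (SE 0.04, edgeR adjusted p = 0.0323), and this call was lost when any 1 of the 4 pairs was left out, with edgeR adjusted p-values of 0.0536 to 0.227.

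Mvk (chr5:114444269-114460591), mevalonate kinase, had 26.4, 22.5, 11 and 18.0 CPM with formate, against 34.5, 26.3, 13.7 and 20.1 CPM with PBS. It showed the lowest log2 change of the 30 genes, -0.27 (SE 0.07, edgeR adjusted p = 0.0152). Mvd (chr8:122433601-122443422), the decarboxylase that yields isopentenyl diphosphate, had 81.4, 66.2, 27.3 and 42.4 CPM with formate, against 94.0, 75.9, 33.5 and 45.9 CPM with PBS. Both enzymes were lower in 4 of 4 pairs, and within a set each formate library lay below its own PBS neighbour. The paired log2 change of Mvd was -0.20 (SE 0.05, edgeR adjusted p = 0.0172). With a pair left out the edgeR adjusted p ran between 0.0394 and 0.0941 for Mvk and between 0.0446 and 0.127 for Mvd.

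Fdps (chr3:89093588-89101959), farnesyl diphosphate synthase, stands at the branch from which sterols, dolichol, ubiquinone and prenyl groups are made. It had 364, 297, 128 and 201 CPM in formate libraries, against 472, 353, 144 and 233 CPM in PBS libraries. The formate library was lower by 0.16 to 0.38 on the log2 scale in the 4 pairs, and codes 10 to 14 held 2.00 times (formate) and 2.19 times (PBS) the level of codes 1 to 8. Its paired log2 change of -0.25 (SE 0.05) had the smallest adjusted p of the 30 genes, 0.00475 with edgeR, and between 0.0161 and 0.0393 with a pair left out. Per kb of its longest coding transcript it was also the most abundant of the 30, at 179 CPM per kb with formate and 217 CPM per kb with PBS.

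The other 3 enzymes of this stretch did not pass. Idi1, the isomerase just before Fdps, had 430.1, 452, 286 and 383 CPM with formate, against 378, 385, 287 and 392 CPM with PBS; its paired log2 change was 0.09 (SE 0.05, edgeR adjusted p = 0.244). It was higher with formate in both pairs of codes 10 to 14 and level or slightly lower in those of codes 1 to 8. Acat2, the thiolase that starts the pathway, had a log2 change of -0.08 and Pmvk, phosphomevalonate kinase, one of -0.13, with edgeR adjusted p-values of 0.283 and 0.241.

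Among the 11 genes from the making of squalene to cholesterol, 3 fell (beside 7.52% of all tested genes), 0 rose (beside 5.35%) and 8 did not pass. Their median paired log2 change was -0.07. Sqle (chr15:59315077-59331192), squalene epoxidase, a rate-limiting step that uses oxygen, had 161, 156, 117 and 146 CPM with formate, against 187, 178, 134 and 155 CPM with PBS. It was lower in each pair, and its set difference was among the smaller ones, 1.202-fold in formate and 1.26-fold in PBS libraries. The paired log2 change was -0.18 (SE 0.04, edgeR adjusted p = 0.0179), with adjusted p-values of 0.0419 to 0.121 when a pair was left out.

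Lss (chr10:76531588-76557138), the synthase that closes the ring to lanosterol, had 162, 150.5, 74.1 and 97.9 CPM with formate, against 177, 169, 80.4 and 112 CPM with PBS. Dhcr7 (chr7:143823145-143848410), the reductase of the last step of one branch, had 74.9, 66.9, 36.2 and 49.2 CPM with formate, against 89.4, 76.4, 42.9 and 55.0 CPM with PBS. In both genes the formate library of every pair was the lower one, and the groups overlapped both between the library sets and inside codes 1 to 8, where formate 4 lay above PBS 3. The paired log2 changes were -0.15 for Lss (SE 0.04, edgeR adjusted p = 0.0287) and -0.21 for Dhcr7 (SE 0.05, edgeR adjusted p = 0.0109). With a pair left out the adjusted p ran between 0.0420 and 0.129 for Lss and between 0.0382 and 0.0863 for Dhcr7.

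The remaining sterol enzymes spread on both sides of 0. Fdft1, which joins farnesyl units to squalene (log2 change -0.11), Cyp51, the lanosterol demethylase (-0.08), and Ebp, the sterol isomerase (-0.07), were each lower in 4 of 4 pairs, with edgeR adjusted p-values of 0.113, 0.266 and 0.358. Nsdhl and Hsd17b7, which act in the removal of methyl groups at carbon C4, had paired log2 changes of -0.07 and -0.01. Msmo1, the methyl oxidase of the same complex, had 189, 174, 69.7 and 113 CPM with formate, against 185, 148, 66.0 and 103 CPM with PBS, a log2 change of 0.12 (SE 0.05, edgeR adjusted p = 0.1004). Sc5d, the desaturase that acts just before Dhcr7, had 129.8, 128, 72.1 and 99.7 CPM with formate, against 119, 112, 70.1 and 93.7 CPM with PBS, a log2 change of 0.11 (SE 0.05, edgeR adjusted p = 0.117). Tm7sf2, a sterol reductase, had a log2 change of 0.20 (SE 0.12, edgeR adjusted p = 0.309), and without codes 10 and 11 its adjusted p was 0.0446.

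Some of these counts may hold reads of other genes. Exons of Fdft1, Cyp51 and Npc1 share 774, 166 and 511 bases with a tested gene on the opposite strand (Ctsb, Akap9 and Rmc1), and the strand setting of the counting is not given in the sources used here. Tm7sf2 shares 532 exon bases with Vps51 on the same strand, and Nr1h2 has a named pseudogene elsewhere, so their counts are uncertain. Of the genes called lower, Fdps shares 1124 of its 4208 exon bases with Gm43738 on the same strand. Scap, Hmgcs1 and Lss share 985, 557 and 381 bases with genes on the opposite strand. The genes that overlap these called ones were not among those tested.

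**Figure D2:**
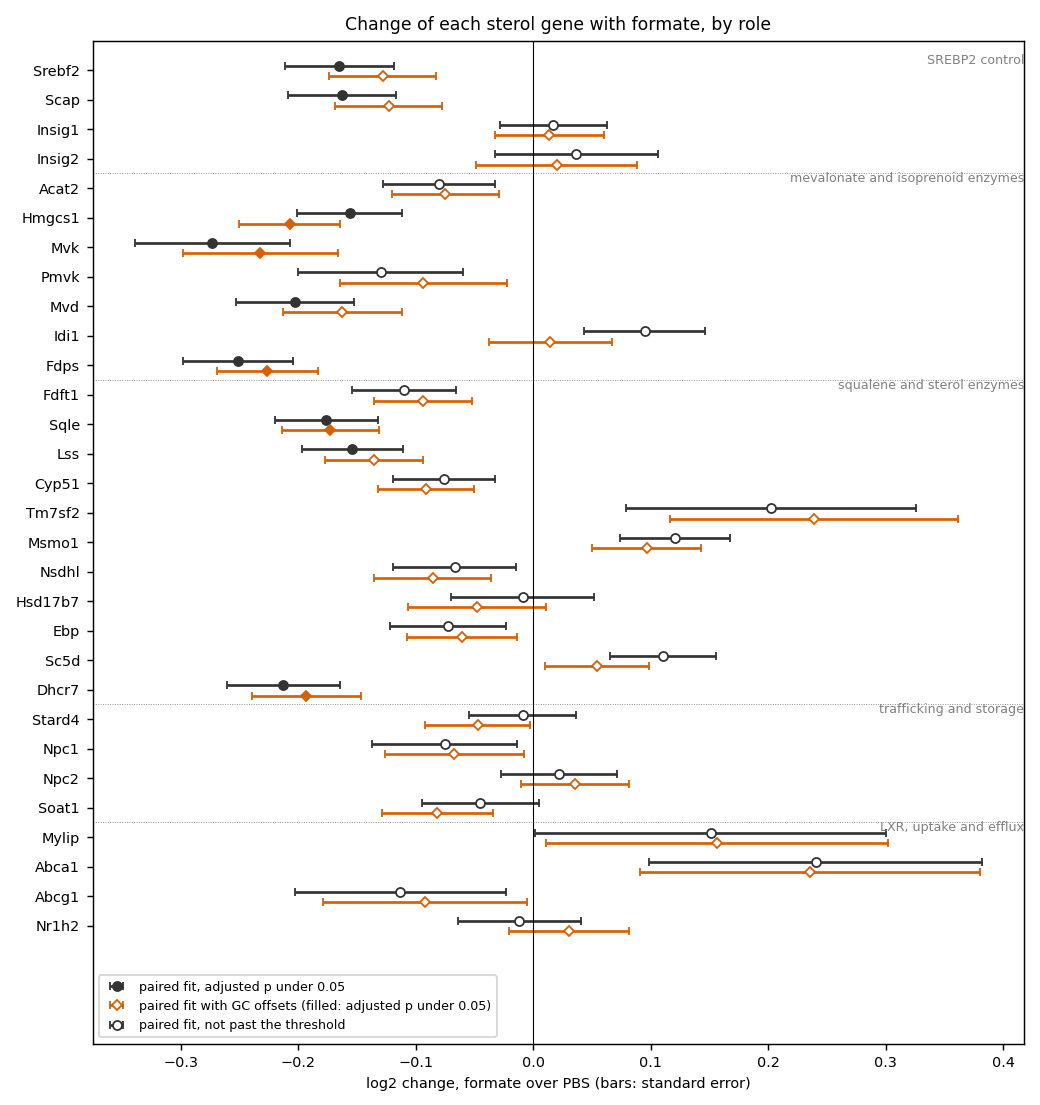
log2 change of each gene, formate over PBS, in the paired edgeR fit (circles) and in the same fit with offsets for GC content (diamonds); bars are standard errors and filled symbols have an adjusted p under 0.05. The filled circles all lie below 0, between -0.27 for Mvk and -0.15 for Lss, whereas Msmo1, Sc5d, Idi1 and Tm7sf2 lie above it with open symbols.

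None of the 4 genes of trafficking and storage passed, beside 7.52% of all tested genes lower and 5.35% higher. Stard4, a soluble sterol carrier, had a paired log2 change of -0.01 and Npc2, which hands sterol to the lysosomal membrane, one of 0.02. Npc1, the membrane partner of Npc2, had a change of -0.08 and Soat1, which esterifies sterol for storage, one of -0.05. Their edgeR adjusted p-values ran between 0.455 and 0.920, and their median log2 change was -0.03. Summed over the 4, the level was 528 ± 130.1 CPM with formate and 532 ± 153 CPM with PBS (SD, n = 4 each).

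The LXR side showed no called change in either direction (0 of 4, beside 7.52% of all tested genes lower and 5.35% higher). Its median log2 change was 0.07. Nr1h2, the LXR beta receptor, had 68.3, 61.7, 65.3 and 61.4 CPM with formate, against 65.8, 69.6, 62.8 and 60.6 CPM with PBS, and its groups overlapped in that narrow range. Its paired log2 change was -0.01 (SE 0.05, edgeR adjusted p = 0.908). Abca1, the pump that loads cholesterol onto lipid-poor particles, had 8.43, 7.23, 2.96 and 4.65 CPM with formate, against 5.12, 6.91, 3.43 and 3.65 CPM with PBS. Formate 1 held the highest value and formate 3 the lowest, so the PBS values lay inside the formate range, and the paired log2 change was 0.24 (SE 0.14, edgeR adjusted p = 0.283).

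Abcg1, the pump that delivers sterol to mature lipoproteins, had 15.5, 11.96, 5.93 and 9.31 CPM with formate, against 19.3, 13.3, 6.27 and 8.41 CPM with PBS. It was lower with formate in 3 of 4 pairs, with a log2 change of -0.11 (SE 0.09, edgeR adjusted p = 0.440). Mylip, the LXR-induced ligase that marks the lipoprotein receptor for degradation, had 3.65, 3.84, 3.41 and 2.90 CPM with formate, against 3.98, 3.47, 2.43 and 2.70 CPM with PBS. It was higher with formate in 3 of 4 pairs, with a log2 change of 0.15 (SE 0.15, edgeR adjusted p = 0.553). These 3 LXR targets were the least abundant of the 30 genes per kb: Abca1 stood at 0.567 and 0.466 CPM per kb (formate, PBS), Mylip at 1.13 and 1.03, and Abcg1 at 1.83 and 2.03.

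**Figure D3:**
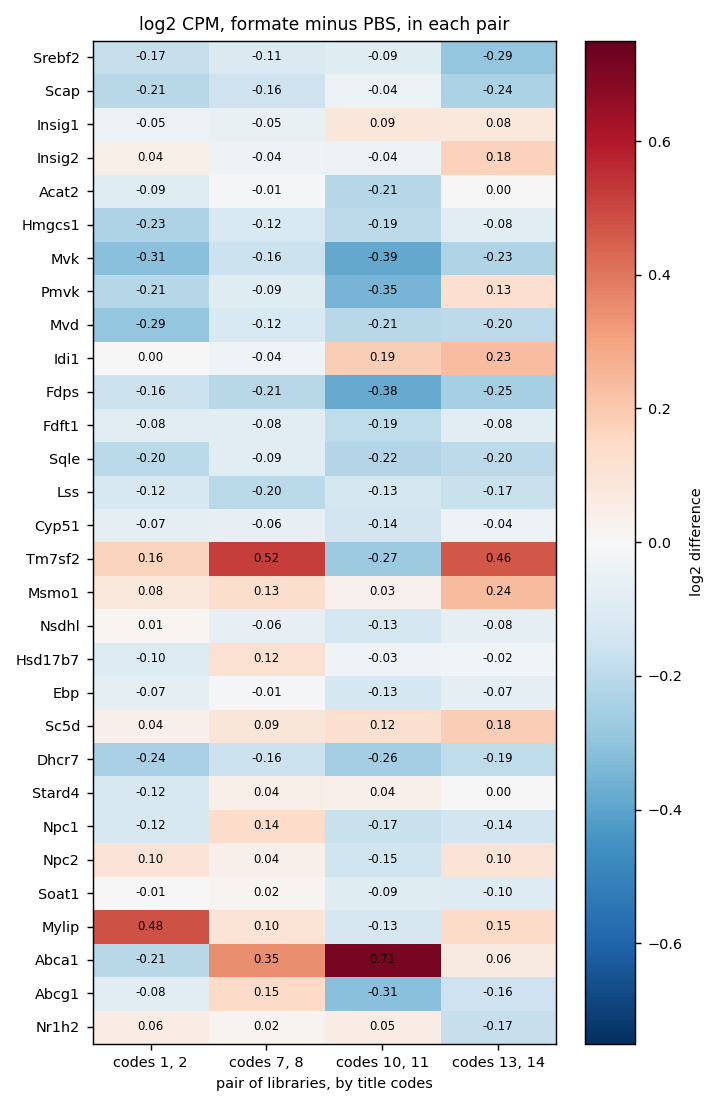
log2 difference in CPM, formate minus PBS, of each gene (down the page, by role) in each pair of neighbouring title codes (across); blue is lower with formate and red is higher. The mevalonate genes other than Idi1 are blue in nearly every column, Msmo1 and Sc5d are red in all 4, and Abca1 runs between -0.21 in codes 1 and 2 and 0.71 in codes 10 and 11.

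The 4 pairs did not weigh alike. The median log2 difference over the 30 genes was -0.13 in codes 10 and 11, -0.08 in codes 13 and 14, -0.09 in codes 1 and 2, and -0.04 in codes 7 and 8, with 23, 20, 22 and 18 of the 30 genes lower with formate. The mevalonate and isoprenoid genes had the lowest median of the 5 roles in each pair, at -0.21 in codes 10 and 11, -0.08 in 13 and 14, -0.21 in 1 and 2, and -0.11 in 7 and 8; in codes 13 and 14 the control genes (-0.08) and the squalene and sterol genes (-0.07) lay beside it. Whether the change differed between the library sets was tested as an interaction in edgeR: 0 of 30 genes passed, beside 0.0677% of all genes. Idi1 had the smallest unadjusted p of this test, 0.0149 (adjusted p = 0.869), with a change higher by 0.23 on the log2 scale in codes 10 to 14.

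Between the library sets most of the sterol genes differed by more than between formate and PBS, with Srebf2 among the exceptions. In PBS libraries the mean of codes 10 to 14 exceeded that of codes 1 to 8 by over 1.5-fold for 17 of the 30 genes (56.7%), beside 14.1% of all tested genes, and the median ratio was 1.60, against 1.01 for all genes. In formate libraries the median ratio was 1.62. The ratio was largest for Tm7sf2, at 2.53 in formate and 3.21 in PBS libraries, and stood at 2.00 and 2.19 for Fdps, 2.12 and 2.14 for Mvd, and 2.03 and 2.14 for Nsdhl. Srebf2, Nr1h2 and Scap stayed near 1 or below, with ratios of 1.02 and 1.05 for Srebf2, 1.03 and 1.10 for Nr1h2, and 0.717 and 0.700 for Scap. This did not hold for all control genes, since Insig1 stood at 1.62 and 1.48 and Insig2 at 1.62 and 1.56. Nor was it limited to regulators, with Hsd17b7 at 0.935 and 0.960 and Npc1 at 0.963 and 1.075. What the title codes stand for is not given in the labels, and with all 4 pairs lying inside one set or the other, the set does not separate formate from PBS.

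**Figure D4:**
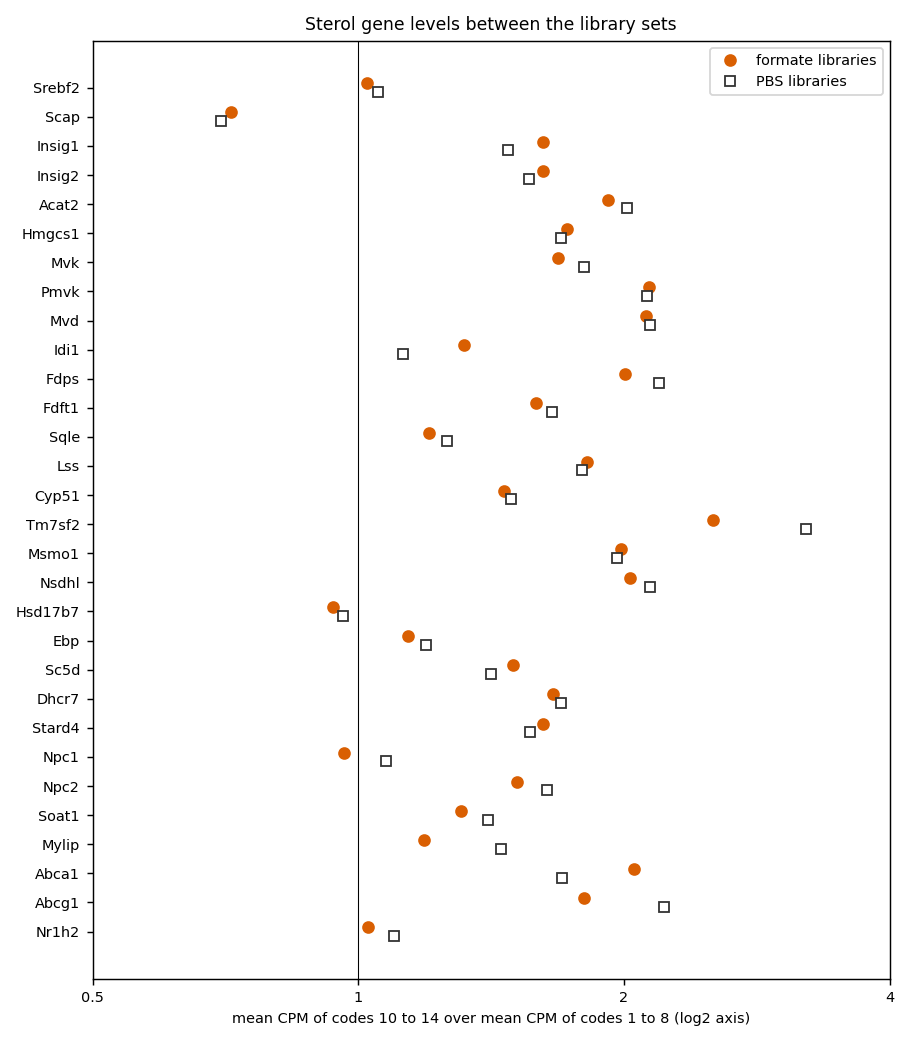
Ratio of the mean CPM in libraries with title codes 10 to 14 to that in codes 1 to 8 (log2 axis, line at 1), for each gene in formate libraries (filled circles) and in PBS libraries (open squares). Nearly all genes lie to the right of 1 in both groups, Tm7sf2 farthest at 2.53 and 3.21, while Scap lies to the left at 0.717 and 0.700.

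Transcript base composition and the mitochondrial share of counts moved with the treatment. The 9 called genes had a median GC content of 54.5%, against 48.2% for the 21 not called, and over all tested genes those lower with formate had a median of 53.3%, against 44.8% for those higher and 50% for all. Across the 30 genes GC content and the paired change had Pearson's r = -0.45, and across all tested genes r = -0.21; genes measured in the same libraries are not independent replicates. With the GC trend of each library removed as an offset, 5 genes stayed called lower in the paired edgeR fit, beside 7.28% of all genes: Fdps (log2 -0.23, adjusted p = 0.00705), Hmgcs1 (-0.21, 0.0114), Dhcr7 (-0.19, 0.0202), Sqle (-0.17, 0.0202) and Mvk (-0.23, 0.0404). Srebf2 (-0.13, edgeR adjusted p = 0.0886), Scap (-0.12, 0.0994), Mvd (-0.16, 0.0561) and Lss (-0.14, 0.0531) no longer passed. Hmgcs1, with 43.1% GC the most AT-rich of the called genes, was the only one of the 9 whose estimate was lower with the offsets than without them. Mitochondrially encoded genes took 0.906%, 0.725%, 0.618% and 0.560% of the counts in formate libraries, against 0.429%, 0.566%, 0.438% and 0.414% in PBS libraries, higher in 4 of 4 pairs; their part in the result was not tested.

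For 3 pairs of enzymes with changes of opposite sign, the ratio of levels was taken within each library. These ratios are independent of scaling between libraries. The pairs were picked after their values had been seen and are described with no test. Other enzymes of the pathway, such as Sqle and Lss, had changes of the same sign (-0.18 and -0.15). Sc5d stood to Dhcr7, the enzyme that follows it, as 1.73, 1.91, 1.99 and 2.03 in formate libraries, against 1.33, 1.47, 1.64 and 1.70 in PBS libraries, so that all formate values lay above all PBS values. The ratio of Idi1 to Fdps was 1.18, 1.52, 2.23 and 1.90 with formate, against 0.800, 1.09, 2.00 and 1.69 with PBS. The ratio of Msmo1 to Lss was 1.17, 1.16, 0.941 and 1.16 with formate, against 1.05, 0.873, 0.821 and 0.918 with PBS. In both of these the formate library was the higher of each pair while the groups overlapped. The log2 differences of the ratios were 0.32, 0.35 and 0.27, and with GC offsets 0.25, 0.24 and 0.23.

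**Figure D5:**
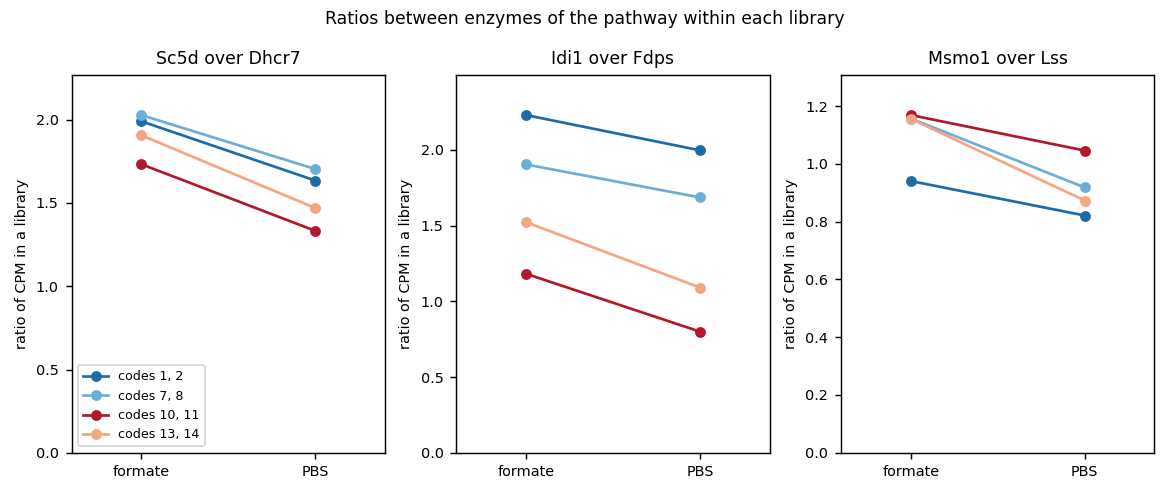
Ratio of CPM between 2 enzymes of the pathway within each library, formate left and PBS right, with lines joining neighbouring title codes and axes from 0. The enzymes were picked after their changes of opposite sign had been seen, so the common slope follows largely from that choice. All 12 lines fall toward PBS, and for Sc5d over Dhcr7 the lowest formate value (1.73) is above the highest PBS value (1.70).

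Genes around the pathway were counted from lists drawn up by function, and 0 of them were called without the pairing. Of 18 genes of SREBP processing and sterol-regulated degradation, 3 fell in the paired edgeR fit, 0 rose and 15 did not pass (median log2 change -0.08). The shares of all tested genes were 7.52% lower and 5.35% higher. Pgrmc2, a haem- and sterol-binding membrane protein, had 51.5, 49.3, 57.2 and 53.3 CPM with formate, against 61.0, 62.7, 71.1 and 63.7 CPM with PBS. Its ranges lay apart, as did those of 1.85% of all tested genes in this direction. Its log2 change was -0.29 (SE 0.05, edgeR adjusted p = 0.00309). Vcp, the ATPase that extracts proteins from the endoplasmic reticulum, changed by -0.29 (edgeR adjusted p = 0.00261) and Rnf145, a sterol-responsive ligase of that membrane, by -0.24 (0.00556).

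Of 12 tested genes among 14 further mevalonate and sterol enzymes and electron donors, 3 fell, 1 rose and 8 did not pass (median log2 change -0.05). Over all tested genes 7.52% were lower and 5.35% higher. Por, the reductase that feeds electrons to Cyp51 and Sqle, had 54.2, 53.6, 59.5 and 58.4 CPM with formate, against 65.3, 65.4, 66.5 and 66.6 CPM with PBS. Aacs, which activates acetoacetate for sterol synthesis, had 88.6, 83.7, 76.1 and 85.8 CPM with formate, against 95.3, 101, 96.1 and 102 CPM with PBS. In both genes every formate library lay below every PBS library, beside 1.85% of all tested genes. Their log2 changes were -0.23 for Por (SE 0.05, edgeR adjusted p = 0.00892) and -0.24 for Aacs (SE 0.05, edgeR adjusted p = 0.00678), and their set ratios in formate and PBS libraries were 0.915 and 0.983 for Por and 1.06 and 0.992 for Aacs. The gene that rose, Cyb5a, a cytochrome that donates electrons to sterol oxidases (0.18, edgeR adjusted p = 0.0230), lies outside the naming rule and was named after its value was seen.

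Downstream of farnesyl diphosphate, 0 of 19 prenylation and isoprenoid branch genes fell (beside 7.52% of all tested genes), 1 rose (beside 5.35%; Chm, the Rab escort protein, log2 0.26, edgeR adjusted p = 0.00981) and 18 did not pass. Of 18 tested sterol transfer genes 0 fell, 3 rose and 15 did not pass, the 3 being Stard3nl, an endosomal tether (0.29, edgeR adjusted p = 0.0115), and Gramd1a (0.20, 0.0145) and Gramd1b (0.20, 0.0214), which move sterol between the plasma membrane and the endoplasmic reticulum. Of 15 tested genes of endosomal and lipoprotein uptake 2 fell, Lrp10 (-0.20, edgeR adjusted p = 0.0101) and the receptor sorting protein Snx17 (-0.20, 0.0201), and 2 rose, the retromer subunit Vps35 (0.21, 0.00764) and, named after its value was seen, the lysosomal protein Lamp2 (0.21, 0.0260). The medians of these lists were -0.04, 0.01 and -0.07.

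Among 14 tested LXR partners and targets (median log2 change -0.04) 0 rose and 3 fell: Arl4c, a small GTPase (-0.21, edgeR adjusted p = 0.00981), Srebf1, the lipogenic SREBP (-0.18, 0.0152), and Rxra, a heterodimer partner of LXR (-0.29, 0.0335). The fatty acid arm of SREBP had 5 of 12 lower and 0 higher, with a median log2 change of -0.16. Its members Fads2 (-0.37, edgeR adjusted p = 0.00259), Scd2 (-0.22, 0.0139) and Acly (-0.17, 0.0307) make unsaturated fatty acids and the acetyl-CoA that both arms use. Scd1 (-0.19, 0.0360) and Acaca (-0.17, 0.0407), named after their values were seen, complete the 5. The shares to set these counts against are 7.52% of all tested genes lower and 5.35% higher; GC content and the mitochondrial share moved with the treatment here as above.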

How the data were processed

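RNA of 4 formate and 4 PBS libraries was sequenced from a stranded polyA kit as pairs of 58 bp, per the labels' protocols. The authors deposited 1 table of expected counts (estimated counts per gene, neither normalised nor pooled). The submitters' processing notes name the tools kallisto, Trimmomatic and MultiQC and the builds mm10 and GRCm38, with no versions; which transcriptome release and which strand setting were used is not given in the sources used here. Fractional values (56.7% of those above 0) were rounded to whole counts. Of 35072 gene identifiers, 8884 have no symbol and 34630 are in GENCODE M21 (GRCm38), the source of coordinates, lengths and GC content.

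The test was that of edgeR 4.0.16 (R 4.3.3, TMM, filterByExpr, robust quasi-likelihood test, Benjamini-Hochberg over 13299 genes, threshold 0.05). SE is the log2 change divided by the root of F. The main fit had no block. The other had the pairs of neighbouring title codes, whose deviations from the group means correlated at 0.656 (10 and 11), 0.370 (13 and 14), 0.653 (1 and 2) and 0.369 (7 and 8). Non-neighbours of the same library set reached 0.373, so the pairing rests on the codes and not on a stated design. CPM are TMM-normalised. GC offsets remove a lowess trend (span 0.3) per library on the GC content of the longest coding transcript. DESeq2 1.42.0, other scalings, no filter, a 1.2-fold minimum, left-out libraries and pairs were the alternatives. Single marker sums were tested over all 70 assignments, for which 0.0286 is the smallest possible p.

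The 30 genes, the other lists and the settings were chosen with earlier results of these data known. Every library value was given for genes called in either fit and for Srebf2, Scap, Insig1, Insig2, Abca1, Abcg1, Mylip and Nr1h2, and up to 3 called genes were named per other list, of which 1 is not reported here; the library values of Idi1, Msmo1, Sc5d, Pgrmc2, Por and Aacs were added after they were seen. No 2 libraries of a group agreed within sampling noise (smallest chi-square per degree of freedom 22.5).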

Additional observations from a re-analysis of the deposited data

Results flagged for a closer look

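Across the 60 sets of 4 libraries (30 genes in 2 groups), Dixon's test at the 95% level, which chance passes in about 1 set of 20, marked 2 libraries as far from the rest of their group. Ebp had 44.9 CPM in formate 3, below the 57.5 to 58.9 CPM of the other formate libraries. Idi1 had 287.3 CPM in PBS 3, below the 378 to 392 CPM of the other PBS libraries. Formate 3 and PBS 3 carry the neighbouring title codes 2 and 1, and in both genes the other library of that pair was the lowest of its own group as well, with 286 CPM for Idi1 in formate 3 and 47.2 CPM for Ebp in PBS 3.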

How the results depend on the processing

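Without the pairing 0 of the 30 genes were called under each alternative scaling, filter, test, library set or left-out library; with the replicate block as the alternative, 9 were lower. The unpaired median log2 change of the 30 was -0.037 in title codes 1 to 8 alone and ran between -0.18 and 0.10 with 1 library left out, turning positive without formate 3 (0.04) and without PBS 1 (0.10). From the paired fit, genes called lower numbered 9 with RLE scaling, without the filter and with DESeq2, 5 with upper-quartile scaling, 4 with library size alone (and 1 higher, Msmo1), 5 with GC offsets, 0 with a 1.2-fold minimum and 0 with no replicate block. With pairs named by their lower code, leaving out pair 10 gave 6, pair 13 gave 2, pair 1 gave 1 and pair 7 gave 5. Called higher were 1 gene without pair 10 (Tm7sf2) and 0 without pair 13, 1 or 7. In the same order, the shares of all genes higher were 4.18%, 1.7%, 1.21% and 2.24%. Fewer libraries entered each of those fits, and for the other changes the cause was not tested. Over all genes, the counts lower and higher were 1000 and 711 in the paired fit and 736 and 832 with upper-quartile scaling. They were 539 and 1048 with library size alone, and 968 and 421 with GC offsets. RLE scaling gave 1126 (8.47%) and 612 (4.6%), and the fit without the filter gave 1361 (5.9%) and 916 (3.97%). With pairs 10, 13, 1 and 7 left out 815, 278, 177 and 419 genes were lower. Single genes whose sign turned all had small changes: Stard4 was 0.0016 and Npc2 -0.0014 with no block; Hsd17b7, Stard4 and Nr1h2 were 0.0117, 0.0116 and 0.0085 with upper-quartile scaling and 0.0267, 0.0270 and 0.0238 with library size alone; Nr1h2 was 0.0305 with GC offsets. With a pair left out, Insig1 ran between -0.0067 and 0.046 (-0.0025 without pair 13), Insig2 between -0.011 and 0.066, Npc2 between -0.0034 and 0.079, Nr1h2 between -0.034 and 0.044, Hsd17b7 between -0.047 and 0.031 and Stard4 between -0.026 and 0.036. Abca1, Abcg1 and Mylip had levels under 20 CPM in every library, and their SEs in the paired edgeR fit were 0.14, 0.09 and 0.15. Tm7sf2, with means of 11.42 CPM (formate) and 10.52 CPM (PBS), had an SE of 0.12. Whether the low levels set these SEs was not tested. The small number of libraries and the unstated pairing limit all of these results.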

Other observations

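Several lipid genes outside the 30 also differed between the library sets, in both groups. Scd1, a stearoyl-CoA desaturase, was 9.88-fold (formate) and 9.78-fold (PBS) higher in title codes 10 to 14 than in 1 to 8. Fads2, another fatty acid desaturase, was 4.29-fold (formate) and 4.17-fold (PBS) higher there. It had 64.6, 49.2, 8.45 and 18.1 CPM in formate libraries 1 to 4, against 76.7, 68.8, 10.7 and 24.2 CPM in PBS libraries 1 to 4. Scd2 had ratios of 2.72 and 2.68 and Arl4c 2.24 and 2.35 in formate and PBS libraries, whereas Srebf1 (1.25 and 1.25) and Acly (1.11 and 1.19) differed little and Rxra lay at 0.240 and 0.262. The values of Rxra were 3.48, 4.87, 22.8 and 12.1 CPM with formate, against 4.24, 6.45, 25.4 and 15.4 CPM with PBS. These genes were chosen from those named above after their values were seen, no test was made between the sets, and what the codes stand for is not known from the labels.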
